A study of Oryza sativa with 12 samples.

Results

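Abscisic acid (ABA) is made from carotenoids and destroyed by oxidation, and 8 rice genes for these steps were followed in the abscission zone, the cell layer at the base of the spikelet where the grain detaches. They were taken as a fixed list of locus IDs, chosen with earlier results of these data known, out of 55986 IDs measured. Of these, 4 (LOC_Os02g47510, LOC_Os03g44380, LOC_Os07g05940 and LOC_Os12g42280) encode 9-cis-epoxycarotenoid dioxygenases (NCED), 3 (LOC_Os02g47470, LOC_Os08g36860 and LOC_Os09g28390) encode ABA 8'-hydroxylases, and LOC_Os04g37619 encodes zeaxanthin epoxidase. These roles come with the list of members, since the files give locus IDs without names. All 8 were measured and passed the filter on low counts in the comparison of ossh1 with WT, and 6 were listed and tested in that of oscct with CK.

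ABA is a plant hormone of drought response, seed maturation and dormancy, and it has been linked to the shedding of organs. Zeaxanthin epoxidase forms the epoxy-carotenoids from which ABA is made. NCED enzymes cut these carotenoids in the plastid, the step usually held to limit the rate of ABA synthesis, and the 8'-hydroxylases, cytochrome P450 enzymes, start the main route of ABA breakdown. ABA raises the transcripts of many of its own response genes, and in several plants also those of the enzymes that break it down.

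RNA sequencing had been done on abscission zones from the day of flowering in 4 groups of 3 libraries, each a pool of 5 plants: ossh1, a mutant; WT, the wild type set beside it; oscct, a mutant that the design text calls oscct22; and CK, the wild type for oscct. The labels give neither the alleles of the mutants nor the variety behind either wild type, and place the field plots in Beijing or Sanya without saying which library came from where. Line, place and mutation therefore cannot be told apart. Libraries held from 27044341 to 28600944 counts in ossh1 and from 30382846 to 32055561 in WT. The oscct table lacks rows in a range of small group differences. Among its 3190 rows averaging 1000 counts or more, the widest stretch of log2 differences (TMM-scaled, within 1 log2 unit of 0) that holds no row is 0.141 wide, from 0.018 to 0.159, and the next widest is 0.02. Among the 6069 such genes of the ossh1 table the widest is 0.011. The depth behind the oscct table is unknown, and its levels are given as CPM of listed counts. The listed counts ran from 12514994 to 12801462 per library in oscct and from 12933891 to 13308848 in CK. The state of OsSh1, OsCCT22 and OsCAD2, named in the series title, and of markers of the abscission zone was not checked here. In such bulk tissue, fewer cells of a type and less RNA per cell cannot be told apart.

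In ossh1, transcripts of 3 of the 4 NCED genes were higher than in WT, one by 32-fold and one by 24.1-fold, while the hydroxylase gene with the most counts, LOC_Os02g47470, was 2.09-fold lower. All 8 genes passed an adjusted p of 0.05, with 6 higher and 2 lower in ossh1, and the libraries of the 2 groups did not overlap for any of them. Calls were common in this comparison: 58.3% of all 22669 genes tested passed (29.2% higher and 29.1% lower), and the groups did not overlap for 62.3% of them. A change of at least 2-fold was called for 5 of the 8 genes, against 12.9% of all genes. The median log2 fold change was 0.879 over the 8 genes and -0.012 over all genes tested. With library totals as the scaling, 38.6% of the called genes of the whole table were higher in ossh1 instead of 50.1%, and the median of all genes moved to -0.108. Every one of the 8 kept its direction and its call under that scaling.

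**Figure D1:**
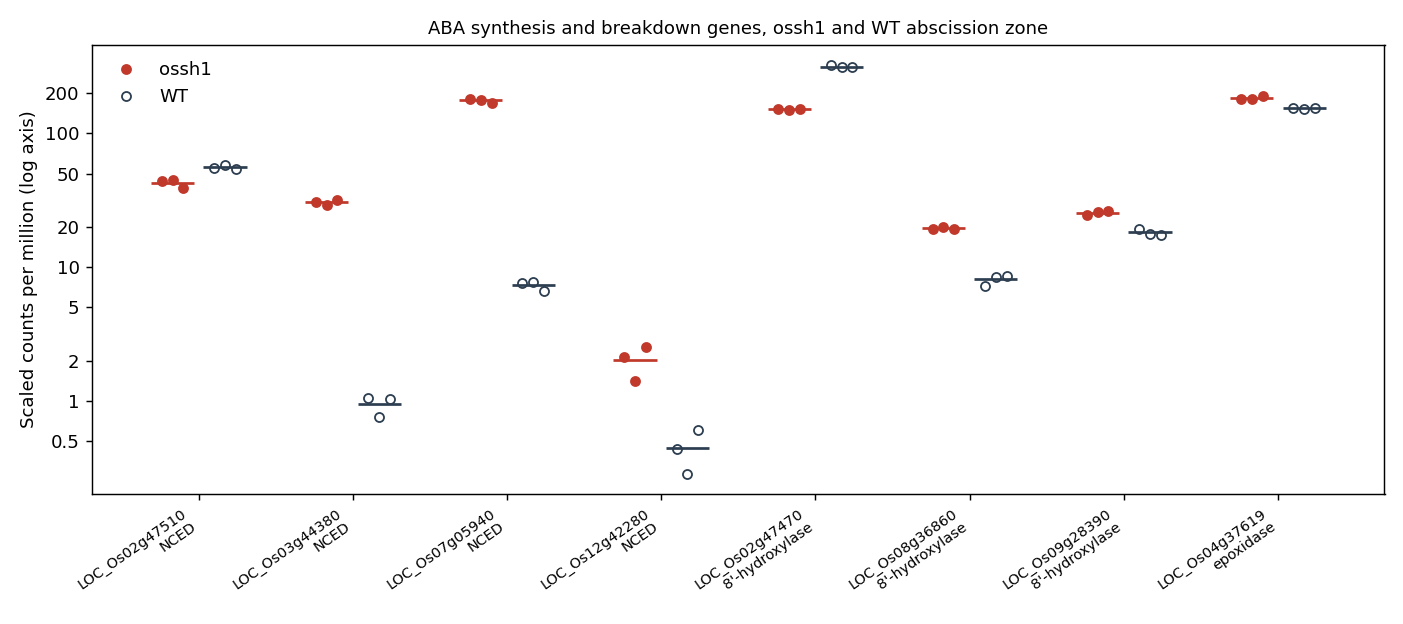
Scaled CPM (log axis) of the 8 genes in each of the 3 ossh1 libraries (filled red points, left of each pair) and the 3 WT libraries (open points), with a line at each group mean. LOC_Os03g44380 and LOC_Os07g05940 stood furthest apart, at group means of 30.6 and 177 in ossh1 and of 0.951 and 7.34 in WT.

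Among the NCED genes, LOC_Os03g44380 had 810, 755 and 889 counts in the ossh1 libraries and 34, 24 and 34 in the WT libraries. The gene was barely counted in WT, and every ossh1 library lay far above every WT library. Its level was 30.6 ± 1.5 CPM (TMM-scaled CPM, counts relative to the library's total; SD, n = 3) in ossh1 and 0.951 ± 0.163 CPM in WT, and the fitted log2 change was 5 with an SE of 0.12 (edgeR adjusted p = 5.49e-32, by Benjamini-Hochberg over all genes tested). Only 83 of the 22669 genes tested had a larger log2 fold change. The SE of this gene was wider with other tools, 0.17 in DESeq2 and 0.22 in limma-voom.

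LOC_Os07g05940 had 4756, 4664 and 4708 counts in ossh1 and 244, 244 and 220 in WT. Its level was 177 ± 6.6 CPM in ossh1 and 7.34 ± 0.609 CPM in WT (SD, n = 3). The fitted log2 change was 4.59 with an SE of 0.06 (edgeR adjusted p = 1.11e-42), and 100 genes had a larger one. Rises of at least 16-fold were called for these 2 NCED genes and for 0.565% of all genes tested.

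LOC_Os12g42280, a further NCED gene, had few counts in both groups, 56, 37 and 70 counts in ossh1 and 14, 9 and 20 in WT. The lowest ossh1 library lay above the highest WT library. It was 2.02 ± 0.556 CPM in ossh1 and 0.443 ± 0.159 CPM in WT (SD, n = 3), and the fitted log2 change was 2.18 with an SE of 0.33 (edgeR adjusted p = 2.91e-07). Counting alone gives a coefficient of variation of 13.6% per ossh1 library and 26.4% per WT library, against 27.4% and 35.9% observed, so the size of this rise is known less well than the others.

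The fourth NCED gene went the other way. LOC_Os02g47510 had 1163, 1170 and 1088 counts in ossh1 and 1777, 1811 and 1797 in WT. It was at 42.8 ± 3.23 CPM in ossh1 and 55.8 ± 1.71 CPM in WT (SD, n = 3), and the fitted log2 change was -0.38 with an SE of 0.05 (edgeR adjusted p = 6.66e-08). A shift of this size is ordinary in this comparison, where 43.8% of all genes had a larger change in either direction.

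The 4 NCED genes together had 6785, 6626 and 6755 counts in the ossh1 libraries and 2069, 2088 and 2071 in the WT libraries, or 252 ± 8.49 CPM in ossh1 and 64.5 ± 1.96 CPM in WT (SD, n = 3). LOC_Os07g05940 supplied 70.1% ± 0.348 of these counts in ossh1 and 11.4% ± 0.647 in WT (SD, n = 3). LOC_Os02g47510 supplied 17% ± 0.79 in ossh1 and 86.5% ± 0.5 in WT. The share of LOC_Os03g44380 was 12.2% ± 0.905 in ossh1 and 1.48% ± 0.285 in WT. These are shares of reads, not of molecules, because transcript lengths were not available.

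**Figure D2:**
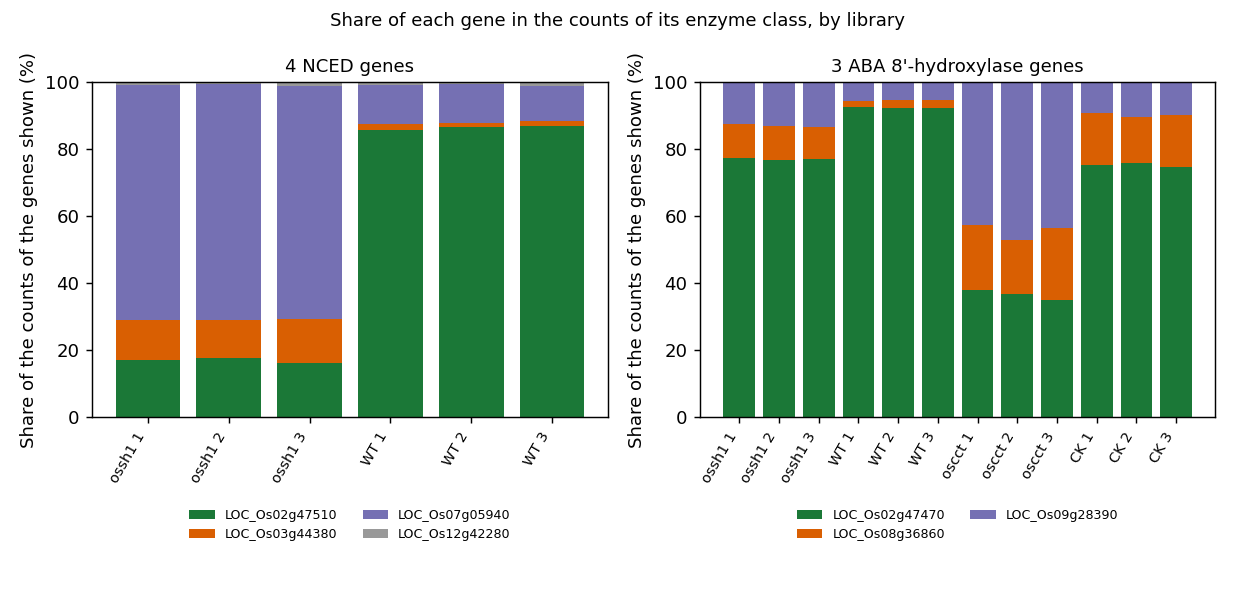
Share (%) of each gene in the summed counts of its enzyme class, one bar per library, for the 4 NCED genes in ossh1 and WT (left) and the 3 ABA 8'-hydroxylase genes in ossh1, WT, oscct and CK (right). LOC_Os02g47510 fills 16.1% to 17.7% of the NCED counts in ossh1 and 85.9% to 86.8% in WT, and LOC_Os02g47470 holds 35% to 37.8% of the hydroxylase counts in oscct and 74.6% to 75.8% in CK.

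The hydroxylase genes were split. LOC_Os02g47470 had 3957, 3906 and 4264 counts in ossh1 and 10404, 9806 and 10375 in WT. Its level was 151 ± 1.62 CPM in ossh1 and 317 ± 6.93 CPM in WT (SD, n = 3), and the fitted log2 change was -1.06 with an SE of 0.03 (edgeR adjusted p = 1.78e-28). A fall of at least 2-fold was called for 4.96% of all genes tested.

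The remaining hydroxylase genes were higher in ossh1. LOC_Os08g36860 had 507, 520 and 539 counts in ossh1 and 232, 266 and 284 in WT. It was at 19.6 ± 0.346 CPM in ossh1 and 8.1 ± 0.741 CPM in WT (SD, n = 3), and the fitted log2 change was 1.27 with an SE of 0.09 (edgeR adjusted p = 8.39e-16). LOC_Os09g28390 had 640, 668 and 735 counts in ossh1 and 617, 561 and 580 in WT. These raw counts were close, and the ossh1 libraries were smaller. With library totals as the scaling, the log2 change of LOC_Os09g28390 was 0.39, still past the test. After TMM scaling its level was 25.5 ± 0.988 CPM in ossh1 and 18.2 ± 0.922 CPM in WT (SD, n = 3), and the fitted log2 change was 0.49 with an SE of 0.07 (edgeR adjusted p = 1.81e-07). Because LOC_Os02g47470 carried most of the reads, the 3 hydroxylase genes summed to 197 ± 2.16 CPM in ossh1 and 343 ± 7.06 CPM in WT (SD, n = 3). LOC_Os02g47470 held 77.1% ± 0.429 of the hydroxylase counts in ossh1 and 92.3% ± 0.117 in WT.

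Zeaxanthin epoxidase, which acts upstream of NCED, was 1.2-fold higher in ossh1. LOC_Os04g37619 had 4756, 4689 and 5330 counts in ossh1 and 4951, 4765 and 5150 in WT, or 184 ± 6.21 CPM in ossh1 and 154 ± 1.97 CPM in WT (SD, n = 3). The fitted log2 change was 0.26 with an SE of 0.03 (edgeR adjusted p = 1.89e-08). With library totals as the scaling it was 0.16, still past the test, and 57.7% of all genes had a larger change.

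In oscct, 5 of the 6 listed genes were lower than in CK, including both listed NCED genes, and 1 hydroxylase gene was higher. The largest change was that of LOC_Os02g47470, 6.4-fold lower in oscct. LOC_Os02g47510 and LOC_Os03g44380 were not listed for this comparison and have no value in it. All 6 passed the test with no overlap between the groups, as did most of the table. Of 11518 IDs tested, 99.1% were called (48.9% higher and 50.2% lower) and 98.2% did not overlap, so the calls of the 6 genes carry no information of their own, and their sizes are given as a description. With listed totals as the scaling, 10216 IDs were called, 5763 of them higher and 4453 lower in oscct. Among the 6, 3 differed by 2-fold or more, against 26.9% of the listed IDs. LOC_Os07g05940, among these 3, had a log2 change of -0.89 with listed totals as the scaling, which is short of 2-fold. The median log2 fold change was -0.806 over the 6 genes and -0.086 over all IDs tested, and the median of all IDs moved to 0.081 with listed totals as the scaling.

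**Figure D3:**
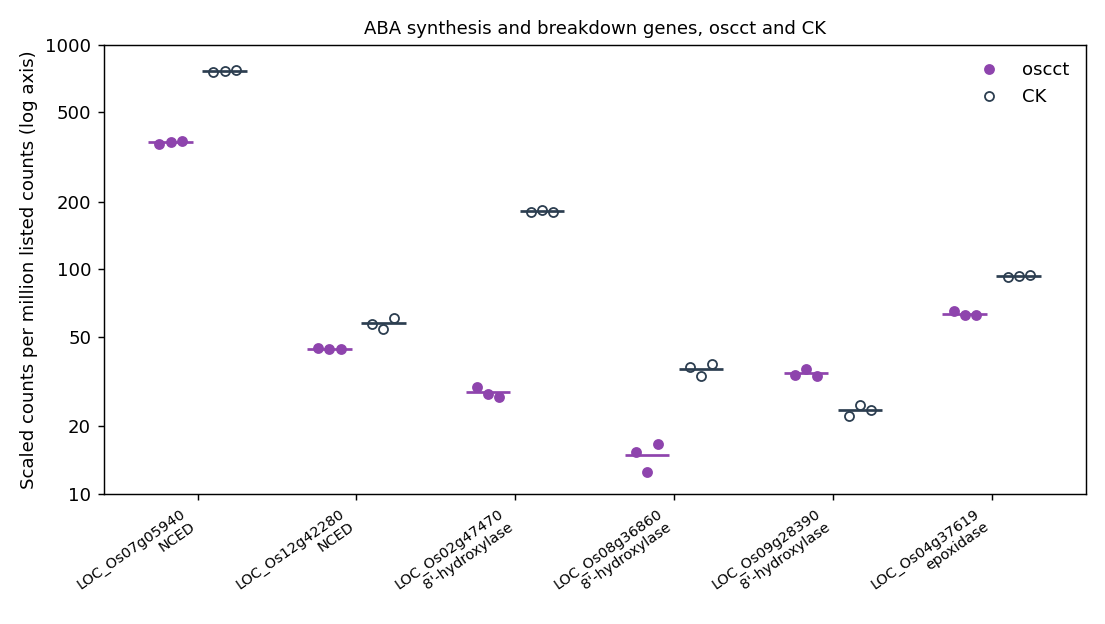
Scaled CPM of listed counts (log axis) of the 6 listed genes in each of the 3 oscct libraries (filled purple points, left of each pair) and the 3 CK libraries (open points), with a line at each group mean. LOC_Os09g28390 is the one gene with oscct above CK, at 34.4 in oscct and 23.6 in CK.

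LOC_Os07g05940, the NCED gene with the most reads in this table, had 4780, 4914 and 5072 counts in oscct and 9420, 9317 and 9712 in CK. Its level was 367 ± 6.72 CPM of listed counts in oscct and 763 ± 9.01 in CK (SD, n = 3), and the fitted log2 change was -1.05 with an SE of 0.03 (edgeR adjusted p = 2.22e-15). LOC_Os12g42280 had 593, 588 and 600 counts in oscct and 714, 662 and 765 in CK. It was at 44.3 ± 0.341 CPM of listed counts in oscct and 57.4 ± 3.28 in CK, and the fitted log2 change was -0.37 with an SE of 0.05 (edgeR adjusted p = 6.03e-06). With listed totals as the scaling this fall was -0.21, still past the test.

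LOC_Os02g47470 was listed in 2 rows, and its summed estimated counts, whole in each library, were 397, 373 and 367 in oscct and 2239, 2237 and 2274 in CK. The oscct libraries lay far below all CK libraries. The level was 28.3 ± 1.48 CPM of listed counts in oscct and 181 ± 2.07 in CK (SD, n = 3), and the fitted log2 change was -2.68 with an SE of 0.05 (edgeR adjusted p = 2.85e-17), and 3.31% of the listed IDs had a larger change. Both rows were lower in oscct: the main row averaged 349.4 counts in oscct and 1964 in CK, the minor row 29.59 in oscct and 285.9 in CK. The minor row held 4.46%, 5.7% and 13.6% of the counts in the oscct libraries and 12.6%, 12.5% and 13% in the CK libraries, so 2 oscct libraries lay below all CK libraries in this share and 1 lay above them.

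LOC_Os08g36860 had 205, 167 and 226 counts in oscct and 460, 410 and 478 in CK. It was at 14.9 ± 2.13 CPM of listed counts in oscct and 36.1 ± 2.27 in CK (SD, n = 3), and the fitted log2 change was -1.28 with an SE of 0.09 (edgeR adjusted p = 1.48e-09). LOC_Os09g28390 was the exception, with 447, 479 and 456 counts in oscct and 278, 305 and 297 in CK. It was at 34.4 ± 1.28 CPM of listed counts in oscct and 23.6 ± 1.37 in CK (SD, n = 3), and the fitted log2 change was 0.54 with an SE of 0.07 (edgeR adjusted p = 1.39e-06). Among the hydroxylase counts of a library, LOC_Os09g28390 thus held 44.4% ± 2.33 in oscct and 9.8% ± 0.5 in CK (SD, n = 3).

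LOC_Os04g37619, zeaxanthin epoxidase, had 868, 832 and 846 rounded counts in oscct and 1151, 1142 and 1184 in CK. It was at 63.4 ± 1.8 CPM of listed counts in oscct and 93.3 ± 1.03 in CK (SD, n = 3), and the fitted log2 change was -0.56 with an SE of 0.04 (edgeR adjusted p = 2.77e-09). With listed totals as the scaling the fall was -0.39. Its single row does not hold whole numbers, so part of its reads may have been assigned to rows that are not listed.

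The changes in the 2 mutants were then set against each other in one model of all 12 libraries, with no control library in common. Of the 6 genes in both tables, 5 had a change that differed between the mutants, all lower in oscct relative to its control than in ossh1 relative to its own. Among all 11654 IDs in this test, 80.3% differed, 39.5% in that direction and 40.9% in the other. With library totals as the scaling, the change was higher in oscct than in ossh1 for 61.8% of the differing IDs, instead of 50.9%. LOC_Os07g05940 differed most of the 6 genes, with a difference, oscct change minus ossh1 change, of -5.64 log2 units (SE 0.06, adjusted p = 4.25e-29, edgeR). The differences were -2.55 (SE 0.26, adjusted p = 2.54e-09) for LOC_Os12g42280, -2.55 (SE 0.13, adjusted p = 3.07e-15) for LOC_Os08g36860 and -0.82 (SE 0.05, adjusted p = 7.66e-13) for LOC_Os04g37619 in edgeR, and each of these genes was higher in ossh1 and lower in oscct than in its control.

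LOC_Os02g47470 was lower in both mutants, and more so in oscct (difference -1.61, SE 0.06, adjusted p = 9.56e-19, edgeR). LOC_Os09g28390 was higher in both. Its difference was 0.06 (95% interval -0.14 to 0.25, adjusted p = 0.613, edgeR), which leaves room for small differences in either direction. With library totals as the scaling that difference was 0.32 and passed the test, with an adjusted p of 0.00517 in edgeR.

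**Figure D4:**
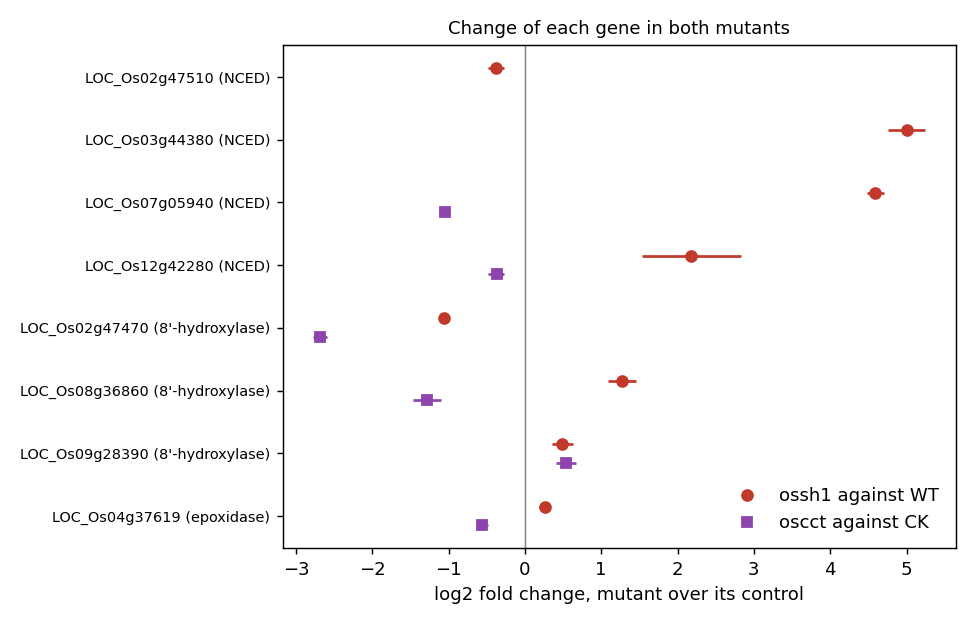
log2 fold change of each gene in ossh1 against WT (red circles) and in oscct against CK (purple squares). The 95% intervals use a standard error derived from the test statistic and normal quantiles. LOC_Os02g47510 and LOC_Os03g44380 have no value for oscct. LOC_Os07g05940 lies at 4.59 in ossh1 and at -1.05 in oscct, and LOC_Os09g28390 at 0.49 and 0.54.

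Within a library, the ratio of NCED to hydroxylase counts needs no scaling. The 4 NCED genes had 1.33, 1.3 and 1.22 counts for each count of the 3 hydroxylase genes in the ossh1 libraries, against 0.184, 0.196 and 0.184 in the WT libraries. With the 2 listed NCED genes, the ratio was 5.12, 5.4 and 5.41 in the oscct libraries, against 3.4, 3.38 and 3.44 in the CK libraries. For the single genes LOC_Os07g05940 and LOC_Os02g47470, the ratio was 1.2, 1.19 and 1.1 in ossh1, against 0.0235, 0.0249 and 0.0212 in WT. It was 12, 13.2 and 13.8 in oscct, against 4.21, 4.16 and 4.27 in CK. In each comparison, every mutant library had a higher ratio than every control library, although in oscct both genes were lower. Such separation is common, since the levels of single genes did not overlap for 62.3% of them in ossh1 and 98.2% in oscct. The NCED ratios of oscct and CK leave out LOC_Os03g44380 and LOC_Os02g47510, and the latter supplied 86.5% of the NCED counts in WT. These ratios were chosen after the values were seen and were not tested, and ratios from the 2 tables are not comparable with each other, since the tables were made separately.

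The rest of the ABA pathway was read from 6 lists with 55 IDs in all. The lists rest on background knowledge of rice locus numbers, which neither the files nor the reference table annotates, so they are given as counts, with no IDs and no single genes named. They were chosen with earlier results of these data known, so the counts are a description only. Clade A PP2C phosphatases hold back the kinases of the ABA response and are themselves induced by ABA. All 9 of this list were higher in ossh1 than in WT, 8 of them by at least 2-fold, with a median log2 fold change of 1.73 (from 0.6 to 4.86). In oscct all 8 listed were lower than in CK, 1 of them by at least 2-fold, with a median of -0.44 (from -2.05 to -0.25). With listed totals as the scaling, 7 of the 8 were called lower and the median was -0.27. Over everything tested, changes of at least 2-fold in either direction were called for 12.9% in ossh1 and 26.9% in oscct.

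The list of ABA-responsive targets was drawn up from transcription factors of the ABA response and from dehydrin and LEA proteins, which accumulate in drying tissue. Of its 11 genes, 9 were higher in ossh1 and 2 did not pass the test, with a median log2 fold change of 1.16 (from -0.16 to 5.09). In oscct, 7 of the 8 listed were lower than in CK and 1 was higher, with a median of -1.31 (from -4.15 to 0.5). With a minimum mean of 1 CPM, 8 genes of the list were left in ossh1, all called higher with a median of 1.71, and 7 in oscct, 6 of them lower with a median of -0.81. The joint fit of all 12 libraries also gave a median of 1.71 in ossh1, over 8 genes. The background to these counts is 29.2% of all tested genes called higher in ossh1, and 50.2% of listed IDs called lower in oscct (4453 of 11518 IDs with listed totals as the scaling).

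The other lists were more mixed, least clearly so the carotenoid list in oscct, with a median of -0.34 against -0.44 for the PP2C list. Both medians lay between the quartiles of all IDs tested in oscct, -0.58 and 0.63. Over everything tested, 29.2% were called higher and 29.1% lower in ossh1. In oscct, 48.9% of listed IDs were called higher and 50.2% lower, so calls in either direction are usual there. Of 12 genes that supply carotenoids before zeaxanthin, 6 were higher and 1 lower in ossh1, and 2 of 10 listed were higher and 8 lower in oscct, where listed totals as the scaling left 5 called lower. Of 5 genes for other steps of ABA synthesis, 3 were higher and 1 lower in ossh1, with 2 higher and 3 lower in oscct. The 3 higher calls in ossh1 were not stable: 1 was left without WT replicate 1, and 2 without ossh1 replicate 2 or with library totals as the scaling. With listed totals, 2 instead of 3 were called lower in oscct. Of 10 SnRK2 kinases, which carry the signal onward, 5 were higher and 2 lower in ossh1, with 5 of 9 listed higher and 3 lower in oscct. Only 3 of 8 ABA receptor genes had enough counts to be tested in ossh1, with 1 higher and 1 lower, and 2 were listed for oscct, with 1 in each direction. The medians of these 4 lists lay between -0.12 and 0.25 in ossh1 and between -0.34 and 0.38 in oscct, and with totals as the scaling between -0.22 and 0.15 in ossh1 and between -0.17 and 0.55 in oscct. That of the receptors in ossh1, -0.12, rests on 3 genes. It was -0.5 without WT replicate 1 and -0.37, -0.55 and -0.42 without ossh1 replicates 1, 2 and 3, each over 4 genes, -0.19 without WT replicate 2, -0.45 over 7 genes with no filter, and -0.51 over 2 genes in the joint fit, where 1 was lower and 0 higher. The median of the 2 receptors in oscct, 0.1, was 0.05, 0.05 and 0.19 without oscct replicates 1, 2 and 3. The median of the carotenoid list in ossh1, 0.21, was 0.13 without WT replicate 3 and 0.34 in the joint fit. For the SnRK2 list in oscct, the most abundant row of each ID gave a median of 0.7 instead of 0.38.

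**Figure D5:**
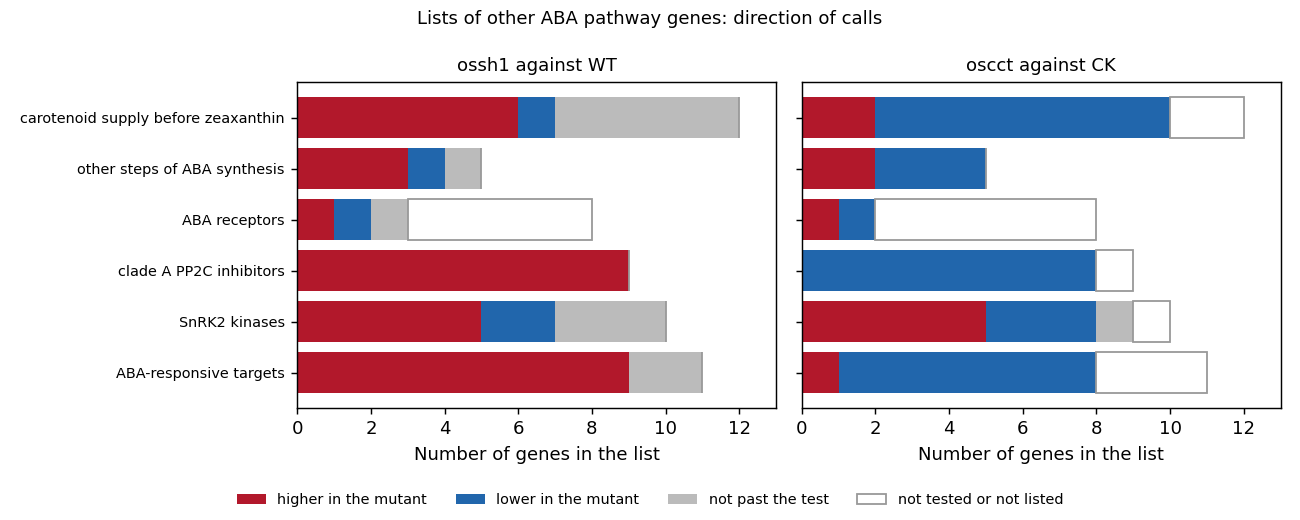
Number of genes of each ABA pathway list called higher in the mutant (red), called lower (blue), not past the test (grey) and not tested or not listed (white), for ossh1 against WT (left) and oscct against CK (right). All 9 clade A PP2C genes are red for ossh1, and the 8 listed are blue for oscct.

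LOC_Os02g47510 and LOC_Os02g47470, an NCED and a hydroxylase gene both lower in ossh1, carry nearby serial numbers on chromosome 2. Of the 3 IDs numbered between them, 1 had enough counts to be tested, with a log2 fold change of 0.13 (adjusted p = 0.518, edgeR).

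The genes most like the leading gene of each class were found over the 6 ossh1 and WT libraries by the Pearson correlation of log2 CPM, among 17867 genes. For LOC_Os07g05940 they were LOC_Os03g21000 and LOC_Os07g26550, each with a correlation of 0.9999. For LOC_Os02g47470 they were LOC_Os02g18550 and LOC_Os06g12790, with correlations that round to 1 and 0.9999. For LOC_Os04g37619 they were LOC_Os12g32360 (0.9989) and LOC_Os05g41290 (0.9988). The libraries fall into 2 groups, and between 13.4% and 17.9% of the genes had a correlation over 0.95 with each of these 3, so a value this high is common.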

How the data were processed

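The authors deposited 1 table per comparison. Per the file headers both hold read counts. Values in the ossh1 table are whole-number counts. Values in the oscct table, as the authors deposited them, are estimated counts (58.5% of them whole) in 13301 rows for 11688 IDs. The submitters' processing notes name HISAT2, RSEM 1.3.1, DESeq2 and IRGSP-1.0 without saying what each was used for. Whether counting used strand is not given here, so reads of overlapping or antisense genes cannot be told apart, and reads shared by gene copies may have been divided.

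Rows of one ID were summed, with 10 exact repeats used once, and rounded. Each whole table was fitted in edgeR 4.0.16 (R 4.3.3) with TMM scaling after filterByExpr, and genes were tested by quasi-likelihood (glmQLFit, glmQLFTest). The p-values were adjusted by Benjamini-Hochberg over all genes tested, at a threshold of 0.05 and with no block. The difference between mutants was an interaction over IDs in both tables, with scaling from each full table. The common biological coefficient of variation came to 4.3% for ossh1 and WT and 3% for oscct and CK. Procedures were tested on simulated counts in which few genes changed and no rows were selected for a difference. Those runs therefore do not speak to the selected rows of the oscct table. Nor do they match comparisons in which most genes were called, as here, with 58.3% in ossh1, 99.1% in oscct and 80.3% for the difference. Alternatives were RLE, library totals, other filters, DESeq2 1.42.0, limma-voom (limma 3.58.1), a replicate block, the most abundant row of an ID, repeats summed, IDs with 1 row, 0.01 as threshold, a joint fit and each library left out. Each library is a separate pool of 5 plants, per the labels. Counting variation covers counting error only.

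The members and lists were chosen with earlier results of these data known. Named genes were the 8 members and, per class, the 2 IDs most like the member with the highest mean CPM. The reference table, of another assembly, paired 0 member IDs with a name, and no sequence was used. Figures used matplotlib 3.10.9.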

Additional observations from a re-analysis of the deposited data

Results flagged for a closer look

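Of the 6 genes measured in both mutants, 5 were set apart because their change differed between oscct and ossh1 in the test of the difference itself (edgeR, adjusted over 11654 IDs). The oscct change minus the ossh1 change, in log2 units, was -5.64 for LOC_Os07g05940, -2.55 for LOC_Os12g42280, -2.55 for LOC_Os08g36860, -1.61 for LOC_Os02g47470 and -0.82 for LOC_Os04g37619. Over all IDs in the test, 9362 differed, so a difference between the mutants is the usual case here. Only IDs present in the oscct table could enter the test.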

How the results depend on the processing

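Of 345 values of the 8 genes under alternatives, 344 kept their direction and their side of the threshold, 0 turned, and 1 gained a call (LOC_Os09g28390, difference between mutants, library totals). The values of LOC_Os12g42280 ranged most, from 1.95 to 2.47 log2 units in ossh1 and from -2.84 to -2.29 for the difference between mutants. The joint fit of all 12 libraries tests the 11654 IDs in both tables that passed the filter on low counts, and shares one estimate of the spread. It called 7793 genes in ossh1, 3968 higher and 3825 lower. The fit of ossh1 and WT alone called 13222 of 22669, 6629 higher and 6593 lower. Which of these changes moved the counts was not tested. Leaving out each library gave 12252 to 12750 calls in ossh1, 11340 to 11391 in oscct (11413 with all) and 9208 to 9278 for the difference (9362 with all). Same-numbered libraries did not deviate together (correlations from -0.012 to 0.017 in ossh1 and WT, and from -0.036 to 0.023 in oscct and CK), and not every library correlated best with its own number. With the replicate number as a block, 12971 genes were called in ossh1, 11396 IDs in oscct and 9321 for the difference, and no call of the 8 genes changed. Low counts limit LOC_Os12g42280 in ossh1 and WT, and the unknown depth and selected rows of the oscct table limit every value read from it.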

Other observations

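The 2 wild types, WT and CK, differed in how several of these genes were represented, though each carries the label wild type. CPM are of all counts in WT and of listed counts in CK. LOC_Os12g42280 had 9 to 20 counts in the WT libraries, which held at least 30382846 counts each, and 662 to 765 in the CK libraries, of which at most 13308848 counts are listed, or 0.443 CPM in WT and 57.4 CPM in CK. LOC_Os07g05940 had 220 to 244 counts in WT and 9317 to 9712 in CK, or 7.34 CPM in WT and 763 CPM in CK. For LOC_Os02g47470 the order was the other way, with 9806 to 10404 counts in WT and 2237 to 2274 in CK, a wider gap in counts than in CPM, which were 317 in WT and 181 in CK. LOC_Os08g36860 was at 8.1 CPM in WT and 36.1 in CK. In CPM, the gaps were narrower for LOC_Os09g28390 (18.2 in WT and 23.6 in CK) and LOC_Os04g37619 (154 in WT and 93.3 in CK). In counts, LOC_Os04g37619 had a wider gap, with 4765 to 5150 in WT and 1142 to 1184 in CK. LOC_Os09g28390 had 561 to 617 counts in WT and 278 to 305 in CK, so its direction in counts was opposite to that in CPM. How far other IDs differ between WT and CK was not examined. The tables were made separately and differ in what they list, so no test was made between them.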
